A study of Mus musculus with 6 samples.

Results

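Secreted signalling genes were examined in adipocyte cultures in which Lhx8, a LIM homeobox transcription factor, was targeted with small interfering RNA (siRNA). They were the chemokines Ccl2, Ccl8 and Ccl17 and the macrophage growth factor Csf1, chosen by gene symbol. They made up 4 of the 817 genes deposited. The siRNA group held 3 libraries, labelled LHX8 deficient, from cells transfected with Lhx8 siRNA. The vehicle group held 3 libraries, labelled wild-type, from cells given the reagent Turbofectamine without siRNA. All 6 libraries were labelled as mouse 3T3-L1 preadipocytes, a fibroblast-like line that can be turned into fat cells, although the labels count the line's number upward from sample to sample. The study describes the sequenced cells as cultured adipocytes. Since the vehicle cells are not described as having received a non-silencing siRNA, loss of Lhx8 cannot be told apart from exposure to any siRNA. Lhx8 itself was not analysed here, so the knockdown was not checked in these libraries. No label says whether separate cultures stood behind the libraries, and p-values therefore measure only how far these libraries differ from one another, for technical or other reasons.

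Chemokines are small secreted proteins that bind receptors on leukocytes and direct their movement. Ccl2 (monocyte chemoattractant protein) draws monocytes through the receptor Ccr2, and preadipocytes and adipocytes are known sources of it in fat. Ccl8 is a close relative in the same gene cluster, which in the mouse acts through Ccr8. Ccl17 binds Ccr4 on T helper 2 and regulatory T cells and is known as a target of IL-4 and STAT6. Csf1 (macrophage colony-stimulating factor) acts through Csf1r and keeps macrophages alive and dividing. In adipose tissue, stromal and fat cells make Csf1.

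The 3 chemokines share the feature that names the CC family, a pair of adjacent cysteines, and the coding stretch around it is shown to place them side by side. Each stretch is 5′ to 3′, in coordinates of GRCm38 with the GENCODE annotation, with the codons of both cysteines in capitals and 15 bases on each side.
Ccl2, chr11:82036491-82036526, plus strand: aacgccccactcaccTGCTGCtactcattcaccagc
Ccl8, chr11:82116041-82116076, plus strand: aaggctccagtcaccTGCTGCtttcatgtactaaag
Ccl17, chr8:94811197-94811232, plus strand: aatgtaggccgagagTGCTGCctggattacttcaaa
All 3 genes spelled the pair with the same codons, and in each the pair lay in exon 2 of 3.

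Ccl2 (ENSMUSG00000035385) spans chr11:82035571-82037453 and Ccl8 (ENSMUSG00000009185) spans chr11:82115185-82116799, both on the plus strand and 77.7 kb apart. Ccl17 (ENSMUSG00000031780) lies at chr8:94810453-94812036 on the plus strand, and Csf1 (ENSMUSG00000014599) at chr3:107741048-107760469 on the minus strand. No source used here names the authors' build, so these positions describe the reference and not the files. No window of 50 bases in the transcripts of any of the 4 genes occurred in a transcript of another gene, which leaves little room for reads to be shared with a near-identical copy.

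For Ccl8, Ccl17 and Csf1 the 250 bases before the gene's start are shown, from RefSeq (GRCm38.p6), because motifs of factors known to act on such genes can be looked for there. Both strands were searched for 5 motifs, and matches are in capitals.
Ccl8, chr11:82114935-82115184, plus strand: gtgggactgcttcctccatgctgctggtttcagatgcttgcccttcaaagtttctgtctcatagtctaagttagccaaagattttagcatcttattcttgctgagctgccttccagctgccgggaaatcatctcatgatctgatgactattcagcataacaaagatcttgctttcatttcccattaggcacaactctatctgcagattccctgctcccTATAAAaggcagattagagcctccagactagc
Ccl17, chr8:94810203-94810452, plus strand: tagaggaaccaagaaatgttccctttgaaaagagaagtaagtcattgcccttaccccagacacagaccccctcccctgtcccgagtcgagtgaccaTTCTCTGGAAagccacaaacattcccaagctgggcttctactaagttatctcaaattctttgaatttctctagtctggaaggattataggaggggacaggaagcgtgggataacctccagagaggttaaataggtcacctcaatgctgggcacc
Csf1, chr3:107760470-107760719, minus strand: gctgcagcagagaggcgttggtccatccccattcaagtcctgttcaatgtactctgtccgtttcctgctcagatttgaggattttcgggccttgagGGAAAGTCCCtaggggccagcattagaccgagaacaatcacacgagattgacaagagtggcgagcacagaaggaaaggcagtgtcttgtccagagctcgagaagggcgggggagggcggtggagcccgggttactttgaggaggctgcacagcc
Ccl8 held TATAAA at position -32, counted back from the start, a motif found in 12.3% of 32536 promoters of this length. Ccl17 held a STAT-type motif at -154, spelled as TTC, any 4 bases, then GAA, which 5.89% of promoters held. Csf1 held a match to the NF-kB motif at -154, which 2.72% of promoters held. Neither the AP-1 motif TGANTCA (6.73% of promoters) nor the homeodomain core TAATTA (4.84%) was found in these 3 windows. These matches are letters in a window and not measured binding.

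The chemokines and Csf1 came from different tables. Chemokine values were estimated read counts from a count list, and Csf1 values came from a second list of 602 genes on an unknown scale. The authors had selected both lists for a difference between siRNA and vehicle, so the direction of a listed gene is not independent evidence. In the count list, vehicle 3 had the top value in 201 genes (86.6% of those listed), and its counts summed to 130467, against 24314 to 28919 in the other 5 libraries. In the second list it had the top value in 78 of 273 genes with 6 values (28.6%). Of the 17 genes in both lists, 15 had siRNA values in each, and the ratio of their mean count to their mean second-list value ran between 0.0732 for Agt and 62.3 for Dpt. Per kb of the longest transcript the same ratio ran between 0.0208 and 36.1. The lists thus do not differ by a common factor or by transcript length, and whether columns of the same name hold the same libraries cannot be told from the files. Chemokine and Csf1 values are therefore never set against each other.

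Ccl2 was by far the most abundant of the 3 chemokines, and its siRNA and vehicle counts overlapped. It had counts of 1081, 1324 and 1060 in siRNA 1, 2 and 3, against 1436, 1273 and 7096 in vehicle 1, 2 and 3. Vehicle 3 alone lay far above the other 5 libraries. The mean was 1155 ± 147 with siRNA and 3268 ± 3316 with vehicle (SD, n = 3 each), or 1354 ± 115 over vehicle 1 and 2 (n = 2). With 1 common library size the log2 fold was -1.50 ± 0.80 (SE), with an adjusted p of 0.317 by the quasi-likelihood test of edgeR with Benjamini-Hochberg adjustment. Without vehicle 3 it was -0.23 ± 0.15 (adjusted p = 0.569). The siRNA count per library was 0.853 of that in vehicle 1 and 2, with a 95% interval of 0.811 to 0.897 that covers counting error only. An exact two-sided permutation test of the counts gave p = 0.200 with vehicle 3 and p = 0.400 without it.

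Ccl8 had the same outlying library and otherwise overlapping groups. Its counts were 396, 355 and 272 in siRNA 1, 2 and 3, against 392, 312 and 1808 in vehicle 1, 2 and 3. The siRNA libraries spanned the values of vehicle 1 and 2. The mean was 341 ± 63.2 with siRNA and 837 ± 842 with vehicle (SD, n = 3 each), or 352 ± 56.6 over vehicle 1 and 2. The log2 fold was -1.30 ± 0.92 (edgeR adjusted p = 0.317), and without vehicle 3 it was -0.05 ± 0.21 (adjusted p = 0.908). The count per library was 0.969 of that in vehicle 1 and 2 (0.879 to 1.07, counting error only). The exact permutation p was 0.500 with vehicle 3 and 1.00 without it.

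Ccl17 was scarce, and here the groups did not overlap. Its counts were 10, 12 and 8 in siRNA 1, 2 and 3, against 14, 14 and 44 in vehicle 1, 2 and 3. Each siRNA library was below each vehicle library, by 2 reads at the closest. The mean was 10.0 ± 2.00 with siRNA and 24.0 ± 17.3 with vehicle (SD, n = 3 each), and both vehicle 1 and vehicle 2 had 14. Counting error alone gave a 95% Poisson interval of 3.45 to 15.8 for the lowest siRNA count and 7.65 to 23.5 for a count of 14. The log2 fold was -1.25 ± 1.08 (edgeR adjusted p = 0.323), and -0.48 ± 0.33 without vehicle 3 (adjusted p = 0.581). The count per library was 0.714 of that in vehicle 1 and 2, with an interval of 0.412 to 1.24, so a difference of this size was not detectable at this depth. The exact permutation p was 0.10, the smallest that 3 against 3 libraries allow, and 0.200 without vehicle 3, the smallest for 3 against 2. Of the genes in the count list, 29 (12.5%) had all siRNA libraries below all vehicle libraries, and 30 (12.9%) did so without vehicle 3. Ccl17 was thus 1 of many listed genes with this pattern.

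**Figure D1:**
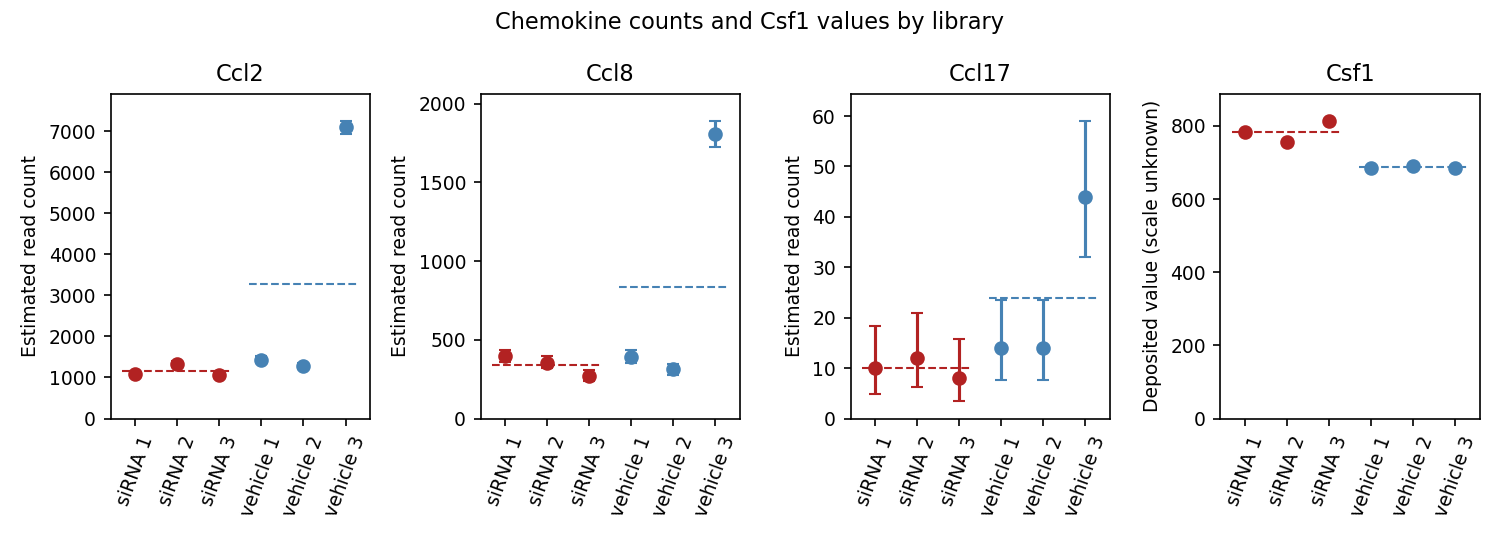
Values of the 4 genes in each library, siRNA in red and vehicle in blue, on axes that start at 0. Points are the estimated read counts with 95% Poisson intervals (counting error only) for Ccl2, Ccl8 and Ccl17, and the deposited values for Csf1, whose scale is unknown. Dashed lines are group means. Vehicle 3 stood apart for the chemokines, at 7096 for Ccl2, while the vehicle values of Csf1 lay between 684.79 and 689.32.

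None of the 3 chemokines passed the adjusted test. Among all genes of the count list, 0 passed (0%), 27 had an unadjusted p under 0.05 (11.6%), and the unadjusted p was 0.0679 for Ccl2, 0.168 for Ccl8 and 0.254 for Ccl17. DESeq2 with its own size factors called 1 gene, and limma-voom called 0. The size of every chemokine fold rested on vehicle 3 and on the scaling. Under TMM scaling, which sets libraries level over most listed genes, the median fold of the list moved to -0.12, against -1.55 with 1 common size. The TMM log2 folds were -0.10 for Ccl2, 0.10 for Ccl8 and -0.13 for Ccl17, so Ccl8 turned its sign. TMM takes most genes as unchanged, which a list selected for a difference need not meet. It removes any shift that the list shares, so a sign this near 0 does not give a direction. On that scale Ccl17 read 19.5, 21.8 and 15.5 in siRNA 1, 2 and 3, against 24.7, 25.9 and 13.3 in vehicle 1, 2 and 3. Vehicle 3 was then the lowest library and the groups overlapped.

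**Figure D2:**
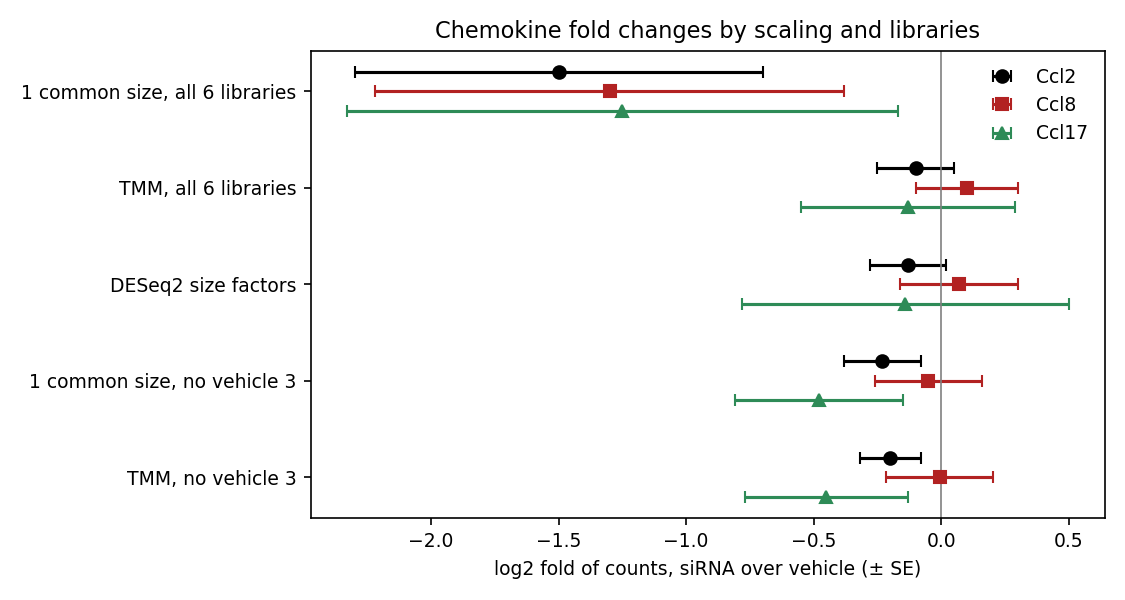
Log2 fold of siRNA over vehicle for Ccl2, Ccl8 and Ccl17 (horizontal axis, bars ± SE) under 5 combinations of scaling and libraries. With 1 common size and all 6 libraries the folds lay between -1.50 and -1.25, and in each other row they lay between -0.48 and 0.10.

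How far vehicle 3 lay from the other vehicle libraries was much alike for Ccl2 and Ccl8. Vehicle 3 over vehicle 1 and 2 was 5.24 for Ccl2 (5.01 to 5.48, counting error only), 5.14 for Ccl8 (4.71 to 5.61) and 3.14 for Ccl17 (1.91 to 5.24). The median over the 167 count-list genes with enough reads in vehicle 1 and 2 was 4.91, with quartiles of 3.27 and 7.34. Of these genes, 89 had a lower ratio than Ccl2, 85 than Ccl8 and 38 than Ccl17. Ccl2 and Ccl8 thus sat in the middle of the list, and Ccl17 below the lower quartile. In the second list the median ratio over 386 genes was 1.04 (quartiles 1.00 and 1.08), and Csf1 had 0.997 (85 of the 386 genes had a lower ratio).

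**Figure D3:**
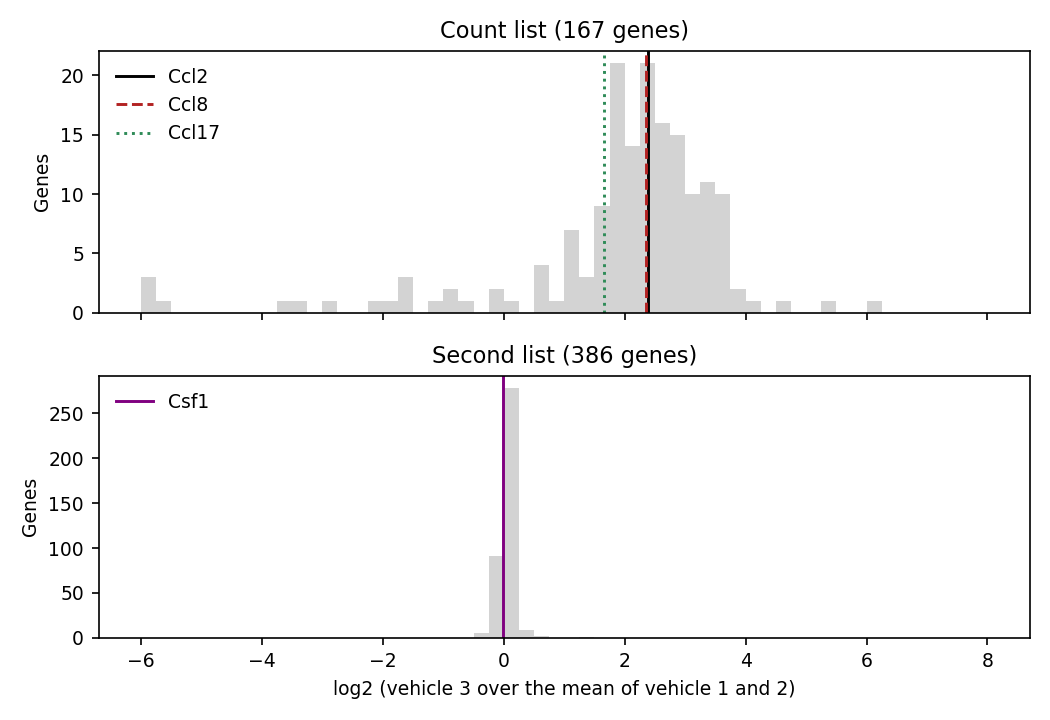
Distribution over genes of the log2 ratio of vehicle 3 to the mean of vehicle 1 and 2, for 167 genes of the count list (top) and 386 of the second list (bottom), with ratios under -6 drawn at -6. Vertical lines mark the members. Ccl2 and Ccl8, at 5.24 and 5.14 on the linear scale, fell at the centre of the count list, and Csf1, at 0.997, just below the lower quartile of the second.

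Ratios of 2 chemokine counts within a library do not depend on the library's size, and they were used to compare the chemokines with each other. Ccl8 was 36.6%, 26.8% and 25.7% of Ccl2 in siRNA 1, 2 and 3, against 27.3%, 24.5% and 25.5% in vehicle 1, 2 and 3. Vehicle 3 lay inside the range of the other libraries, and only siRNA 1 stood above the rest. The means were 29.7 ± 6.03% and 25.8 ± 1.42% (SD, n = 3 each), a log2 difference of 0.19 (exact permutation p = 0.400, adjusted over the 3 ratios 0.750). Ccl17 was 0.925%, 0.906% and 0.755% of Ccl2 in siRNA 1, 2 and 3, against 0.975%, 1.10% and 0.620% in vehicle 1, 2 and 3 (exact p = 1.00). Here vehicle 3 was the lowest library, the reverse of its place in the raw counts. Ccl17 was 2.53%, 3.38% and 2.94% of Ccl8 in siRNA 1, 2 and 3, against 3.57%, 4.49% and 2.43% in vehicle 1, 2 and 3 (exact p = 0.500, adjusted 0.750). Without vehicle 3, both Ccl17 ratios were lower in each siRNA library than in each vehicle library (log2 differences of -0.27 and -0.45, exact p = 0.200 for each, the smallest possible). Both ratios share the same Ccl17 counts of 8 to 14, which set their precision, so they are not independent of each other. The Ccl17 counts alone were also separate without vehicle 3, a pattern of 12.9% of the listed genes.

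**Figure D4:**
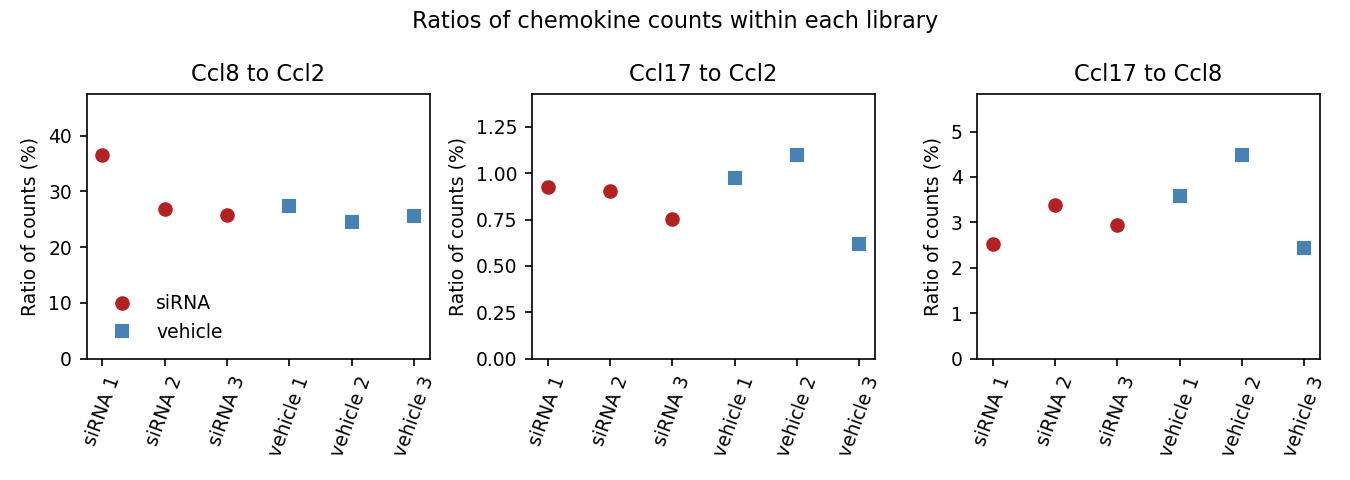
Ratio of the counts of 2 chemokines within each library, in percent, for the siRNA libraries (red circles, left) and vehicle libraries (blue squares, right). In the 2 ratios of Ccl17, vehicle 3 was the lowest library, at 0.620% of Ccl2 and 2.43% of Ccl8.

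Per kb of the listed transcript, which makes levels of different genes comparable, Ccl2 averaged 1421 ± 180 counts with siRNA and 4020 ± 4079 with vehicle (SD, n = 3 each). Ccl8 averaged 667 ± 124 with siRNA and 1639 ± 1647 with vehicle. Ccl17 averaged 19.5 ± 3.89 with siRNA and 46.7 ± 33.7 with vehicle. The order Ccl2, Ccl8, Ccl17 held in each of the 6 libraries. Across libraries Ccl2 and Ccl8 thus had at least 272 reads each and Ccl17 at most 44.

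Of 41 chemokine ligands, 5 could be analysed, all in the count list. Ccl5, which attracts T cells and monocytes, had counts of 213, 245 and 138 in siRNA 1, 2 and 3, against 182, 152 and 929 in vehicle 1, 2 and 3. Its log2 fold was -1.08 (edgeR adjusted p = 0.327), and without vehicle 3 it was 0.25. Ccl9, a mouse attractant of myeloid cells, had 47, 44 and 30 with siRNA, against 46, 52 and 240 with vehicle (log2 fold -1.48, adjusted p = 0.317; -0.28 without vehicle 3). All 5 ligands had their top count in vehicle 3, as did 86.6% of the listed genes. The median fold of the 5 was -1.30, beside -1.55 for the whole list, and 0 passed. Without vehicle 3, 4 were negative and 1 positive with a median of -0.23, beside -0.10 for the list. Under TMM, 3 were negative and 2 positive, beside 141 negative and 91 positive in the list. Among 25 chemokine receptors, 1 was analysed. Cmklr1, the receptor of chemerin, had 1, 2 and 2 reads with siRNA, against 1, 3 and 66 with vehicle, so nearly all its reads were in vehicle 3.

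Csf1 was higher with siRNA in each library. Its values were 782.16, 757.29 and 814.51 in siRNA 1, 2 and 3, against 684.79, 689.32 and 685.04 in vehicle 1, 2 and 3. The groups did not overlap, and vehicle 3 did not stand apart. The mean was 785 ± 28.7 with siRNA and 686 ± 2.55 with vehicle (SD, n = 3 each), which is 14.3% higher with siRNA. The log2 difference was 0.19 ± 0.04 (SE; limma with Benjamini-Hochberg adjustment, adjusted p = 6.14e-04). The exact permutation p was 0.10, the smallest that 3 against 3 libraries allow. Without vehicle 3 the log2 difference was also 0.19 (adjusted p = 0.00195), and with libraries centred on their median it was 0.26 (adjusted p = 2.00e-05).

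Csf1 rose in a list where nearly every gene passed. Of 496 genes tested, 246 (49.6%) passed as higher with siRNA and 242 as lower, and 120 of 273 genes with 6 values (44.0%) had all siRNA libraries above all vehicle libraries. Passing was therefore the rule of the list and not a mark of Csf1. Its difference was small among the genes that rose. Of the 246, 202 had a larger one, and their median was 0.27 with quartiles of 0.21 and 0.37. The vehicle values of Csf1 had a coefficient of variation of 0.371%, against 3.66% for its siRNA values. Over 265 genes with 6 values and a mean of at least 10, the median coefficient was 4.05% with siRNA and 3.84% with vehicle, and 2 genes had a smaller vehicle coefficient than Csf1. A read count of the size of the Csf1 vehicle mean would have a coefficient of 3.82% from counting error alone, but the scale of these values is unknown. The SE of the fit borrows the spread of all listed genes and does not rest on these 3 vehicle values alone. Of 9 colony-stimulating factors and their receptors, Csf1 was the only one analysed, so its receptor was not compared.

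Genes with the profile most like each member over the 6 libraries were sought in its own list, as the smallest root mean square difference of centred log2 values. For Ccl2 these were Dmpk (0.094), Msln (0.135) and Casp4 (0.151), against a median of 0.364 over 127 genes. For Ccl8 they were Lce1f (0.132), Casp4 (0.152) and Dcxr (0.166), with a median of 0.422. Casp4, an inflammatory caspase, was near both Ccl2 and Ccl8, with counts of 78.0, 94.0 and 66.0 with siRNA, against 83.0, 78.0 and 385 with vehicle. For Ccl17 they were Pdlim2 (0.145), Inava (0.151) and Tmem119 (0.186), with a median of 0.492 over 128 genes. For Csf1 they were Ddr1 (0.026), Tmem119 (0.027) and Actn4 (0.028), with a median of 0.181 over 251 genes. All of the chemokine profiles were dominated by the high value in vehicle 3.

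Tmem119, a membrane protein known from bone-forming cells and microglia, was near Ccl17 in one list and near Csf1 in the other. In the count list it had 661, 720 and 638 with siRNA, against 1029, 965 and 2190 with vehicle, a log2 fold of -1.05 (edgeR adjusted p = 0.321; -0.57 without vehicle 3). In the second list it had 302, 298 and 312 with siRNA, against 258, 275 and 269 with vehicle, a log2 difference of 0.19 (limma adjusted p = 0.00122). In both lists its groups were separate, but in opposite directions. Of the 12 genes tested in both lists, all 12 had negative folds in the count list, where 207 genes were negative and 25 positive. In the second list 10 of the 12 were negative and 2, Tmem119 and Lama5, positive. That whole list had 243 negative and 253 positive. Without vehicle 3, 11 of the 12 genes were tested in the count list, with 9 negative and 2 positive, and Tmem119 stayed negative. The whole count list then had 119 negative and 80 positive.

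Genes of pathways known to induce chemokines, such as cytokine receptors and immediate early factors, were counted from a list of 33. The count list held 5 (Lbp, Fos, Sting1, Zbp1 and Egr1), of which 0 passed. All 5 had negative folds with a median of -1.21, beside 207 negative and 25 positive in the whole list (median -1.55). Under TMM, 1 was negative and 4 positive (median 0.05), beside 141 negative and 91 positive in the list (median -0.12). The second list held 3 (Il1r1, Tnfrsf1a and the antagonist Il1rn), and all fell. In that list 242 of 496 genes (48.8%) passed as lower and 98.4% passed in either direction. Il1r1, the signalling receptor of interleukin-1, had 29.61, 32.58 and 31.49 with siRNA, against 40.33, 39.75 and 44.65 with vehicle (log2 difference -0.41, limma adjusted p = 4.20e-05). Tnfrsf1a, the main TNF receptor, had 251.68, 234.32 and 238.83 with siRNA, against 270.63, 261.73 and 270.08 with vehicle (log2 difference -0.15, limma adjusted p = 0.00603). With libraries centred on their median Tnfrsf1a no longer passed (-0.07, adjusted p = 0.135). Il1rn, the secreted antagonist of that interleukin-1 receptor, had a log2 difference of -0.50 (limma adjusted p = 6.13e-05). Receptor and antagonist thus moved the same way.

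Of 16 type 2 immunity genes, the setting in which Ccl17 is best known, Arg1 and Il33 were in the count list, and neither passed. Il33, a cytokine of type 2 immunity, had a log2 fold of -1.0, beside the list's median of -1.55, and turned positive without vehicle 3 (0.36) and under TMM (0.46). Arg1 had at most 1 read outside vehicle 3, where it had 15. Il1rl1, the IL-33 receptor, fell in the second list by 0.86 on the log2 scale (limma adjusted p = 1.20e-06), where 48.8% of genes tested passed as lower. It had genuine values of 13.49 and 10.89 in siRNA 1 and 2, against 23.38, 21.37 and 21.33 in vehicle 1, 2 and 3. Its siRNA 3 cell was held as a date and left out.

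Cells that could supply or answer these signals were looked for with marker lists. Of 21 macrophage and monocyte markers, 4 (Itgb2, Cd33, Mpeg1 and Alox5ap) were in the count list, and their counts summed to 41.0, 37.0 and 33.0 in siRNA 1, 2 and 3, against 38.0, 32.0 and 343 in vehicle 1, 2 and 3. All 4 had their top count in vehicle 3, as did 86.6% of the count list. None of these 4 was at 0 in a group, and the defining markers Adgre1, Cd68 and Csf1r were not analysed here. Of 8 endothelial markers 3 were listed, with sums of 55.0 to 88.0 over siRNA libraries and 96.0, 79.0 and 517 in vehicle 1, 2 and 3. Of 8 dendritic cell markers 2 were listed, and they went opposite ways in vehicle 3. Cd207 had 58, 78 and 60 with siRNA, against 47, 45 and 1 with vehicle, and Cd80 had 17, 19 and 17 with siRNA, against 14, 20 and 98 with vehicle. The part of such cells in the chemokine counts of vehicle 3 was not tested, and in bulk RNA more cells of a type and more RNA per cell cannot be told apart. In the second list, 4 of 14 preadipocyte and fibroblast markers (Ly6a, Col3a1, Pdgfra and Dpt) and 2 of 10 adipocyte markers (Adipoq and Lpl) passed, and all 6 were lower with siRNA. As 98.4% of that list passed and 48.8% as lower, passing is no mark of these markers. Adipoq, which encodes the fat cell hormone adiponectin, had genuine values of 3.47 and 2.83 with siRNA, against 8.76 and 8.96 with vehicle. Dpt was also in the count list, at 985, 1324 and 1092 with siRNA, against 1273, 1111 and 8486 with vehicle. Its log2 fold there was -1.68 (edgeR adjusted p = 0.317), and -0.07 without vehicle 3.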

How the data were processed

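RNA was purified with TRIZOL and oligo(dT) beads before DNA nanoball sequencing. As stated in the methods and in the notes of the submitters, the authors aligned reads with HISAT and Bowtie2 and estimated expression with RSEM. Versions, genome build, annotation and strand setting were not given in the sources used here. As values, the authors deposited estimated counts for a first list (86.8% whole numbers) and, for 602 further rows, a score of unknown scale headed as a read count, of which 0.92% of genuine values were whole. In these rows 570 of 3612 cells were held as dates, 526 of them equal to the mean of the group's other values within 0.01. They were left out, leaving 3042. All 6 values of Csf1 were genuine. The authors' columns of means, log2 ratios and p-values hold their own comparison and were not used.

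Estimated counts were rounded and tested with edgeR 4.0.16 (quasi-likelihood test, 1 common library size because only selected genes are listed, summed count of at least 10). The design assumed counts throughout. Since the second list is not counts, it was tested with limma 3.58.1 (trend) on log2(value + 0.1), with at least 2 genuine values per group. Such differences understate the change of low genes. P-values were adjusted over each whole list by Benjamini-Hochberg with a threshold of 0.05. Both scripts recovered changes in simulated data, which checks the code only. Such recovery does not show what edgeR could detect in the count list, whose genes were selected and whose listed totals ran from 24314 to 130467. Single values were compared by exact two-sided permutation tests (SciPy 1.17.1). Listed totals are not library depth, which is unknown here, and counting intervals (95%, exact Poisson for a count) cover counting error only. Alternatives were other scalings, DESeq2 1.42.0, limma-voom, filters, pseudocounts and leaving out each library.

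Named genes were the 4 members, every other measured chemokine ligand, chemokine receptor and colony-stimulating factor, and for each member the 3 genes of its table with the most similar centred log2(value + 1) profile among those with a mean of at least 20 and 6 values. Genes of the inducer, type 2 and marker lists, and genes in both lists, fall outside this rule and were named after their values were seen. Members and gene lists were chosen with earlier results of these data known.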

Additional observations from a re-analysis of the deposited data

How the results depend on the processing

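Ccl8 changed sign, to a log2 fold of 0.10 under TMM scaling and 0.07 with the size factors of DESeq2, against -1.30. Ccl2 and Ccl17 kept a negative fold under all 14 alternatives, and none of the chemokines passed under any. Leaving out each library in turn gave log2 folds of -1.88 to -0.23 for Ccl2, -1.69 to -0.05 for Ccl8 and -1.52 to -0.48 for Ccl17, with the value nearest 0 without vehicle 3. Csf1 kept its call under all 12 alternatives, at 0.17 to 0.22 when each library was left out. The count list had 0 genes passing, 1 with the size factors of DESeq2, 1 under TMM without vehicle 3 (chosen after seeing the data), and 0 to 6 when each library was left out (6 without vehicle 1 and 5 without vehicle 2). Of the second list, 488 genes passed (242 lower and 246 higher), 271 (149 lower and 122 higher) when all 6 values had to be genuine and only 273 genes were tested, and 184 lower and 251 higher with libraries centred on their median. Groups did not overlap for Ccl17, with siRNA below vehicle, a pattern of 12.5% of the count list. They did not overlap for Csf1 either, with siRNA above vehicle, as in 44.0% of second-list genes with 6 values. Under TMM, run on the count list only, the groups of all 3 chemokines overlapped. Whether replicate numbers pair the samples could not be decided from 3 libraries per group. After centring within groups, same-numbered libraries correlated at 0.07, 0.05 and 0.12 in the count list and 0.25, 0.12 and 0.03 in the second list. Differently numbered libraries correlated at -0.11 to 0.08 in the count list and -0.31 to 0.13 in the second list. With the replicate number as a block the log2 fold was -0.99 for Ccl2, -0.78 for Ccl8, -1.03 for Ccl17 and 0.19 for Csf1, and 0 and 476 genes passed. Depth limits Ccl17, with 8 to 14 reads outside vehicle 3.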
